A study of Mus musculus with 2 samples.

Results

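Excitation-contraction coupling is the chain of steps by which an action potential on a muscle fibre releases calcium from the sarcoplasmic reticulum and so starts contraction. In skeletal muscle the voltage sensor of the transverse tubule (the L-type channel CaV1.1 with its accessory subunits) opens the ryanodine receptor of the facing reticulum by direct contact. Junctophilins hold the membranes together, calsequestrins bind calcium inside the store, and the SERCA pumps return calcium to it. The 10 genes described here are the calcium release channels Ryr1 and Ryr3, the channel subunits Cacna1s, Cacnb1 and Cacng1, the pumps Atp2a1 and Atp2a2, the calsequestrins Casq1 and Casq2, and the junctophilin Jph2. They were taken by symbol, matched through the gene identifier without its version to GENCODE M21, and all 10 were found among 43346 gene rows.

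The series holds total RNA sequencing of whole limb tissue from mouse embryos of strain B6NCrl, aged 15.5 days, with no treatment named. There was 1 group of 2 biological replicates, each pooled from healthy embryos of mixed sex, with 78 embryos pooled for replicate 1 and 62 for replicate 2. RNA longer than 200 nt was kept and 10 ng went into each library. Limb at this age is a mixture of skin, cartilage, connective tissue, vessels, nerve and forming muscle, and the labels name neither fore- nor hindlimb. With a single group no conditions could be compared, so differences between the pools are given as sizes, with no test.

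Expected counts (estimated counts of reads per gene) totalled 35104685 for replicate 1 and 41757268 for replicate 2, of which 2.28% and 2.26% fell on spike-ins. Skeletal muscle was present in both pools: skeletal actin Acta1 had 2862 and 779 TPM (a level per length, scaled to the library) in replicates 1 and 2, and the embryonic myosin Myh3 had 268 and 105 TPM. The 20 contractile markers of skeletal muscle summed to 12110 TPM in replicate 1 against 3946 in replicate 2, and each was over 2-fold higher in replicate 1. Of 7 heart markers, the 2 whose mean TPM reached 1 were Tnni3 (5.06 and 4.67 TPM) and Myl7 (5.20 and 3.06 TPM), while Myh6 had 1.31 and 0.16 TPM and Nppa 0.13 and 0.10 TPM. All 6 smooth muscle markers were higher in replicate 1, with a median fold of 1.43 and a sum of 455 and 295 TPM, led by Acta2 (301 and 199 TPM), while the defining marker Myh11 had 2.43 and 1.56 TPM. The part of smooth muscle in the differences described here was not tested. The neuron markers Tubb3 and Stmn2 had 3.40 and 4.08 TPM and 9.86 and 9.81 TPM. In bulk tissue, fewer cells of a type and less RNA per cell cannot be told apart.

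The 10 genes lie on 6 chromosomes in the GRCm38 annotation. On chromosome 7 are Ryr1 (ENSMUSG00000030592.12, chr7:29003344-29125179, minus strand) and Atp2a1 (ENSMUSG00000030730.8, chr7:126445858-126463108, minus strand). Chromosome 1 carries Cacna1s (ENSMUSG00000026407.13, chr1:136052750-136119822, plus strand) and Casq1 (ENSMUSG00000007122.7, chr1:172209894-172219868, minus strand). Chromosome 11 carries Cacnb1 (ENSMUSG00000020882.13, chr11:98001508-98023034, minus strand) and Cacng1 (ENSMUSG00000020722.5, chr11:107703218-107716522, minus strand). Chromosome 2 carries Ryr3 (ENSMUSG00000057378.10, chr2:112631355-113217096, minus strand) and Jph2 (ENSMUSG00000017817.7, chr2:163336242-163397993, minus strand). Casq2 (ENSMUSG00000027861.9) is at chr3:102086415-102146514 on the plus strand, and Atp2a2 (ENSMUSG00000029467.11) is at chr5:122453513-122502225 on the minus strand.

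The pump gene Atp2a1 and the calsequestrin gene Casq2 had the highest levels in both pools, and the release channels and the junctophilin the lowest. By TPM the order in replicate 1 was Atp2a1, Casq2, Casq1, Cacng1, Atp2a2, Cacnb1, Cacna1s, Ryr1, Jph2 and Ryr3. The deposited tables give an interval for each TPM estimate, which covers counting and the assignment of reads within a library but not the spread between pools. These intervals overlapped for 2 pairs of neighbours in that order, Atp2a2 with Cacnb1 and Ryr1 with Jph2. In replicate 2 the order was Atp2a1, Casq2, Atp2a2, Cacnb1, Casq1, Cacng1, Cacna1s, Jph2, Ryr1 and Ryr3, and again 2 pairs of neighbours overlapped, Cacnb1 with Casq1 and Jph2 with Ryr1. Summed over the 10 genes the level was 521 TPM in replicate 1 and 185 TPM in replicate 2, or 0.0754% and 0.0311% of all expected counts.

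**Figure D1:**
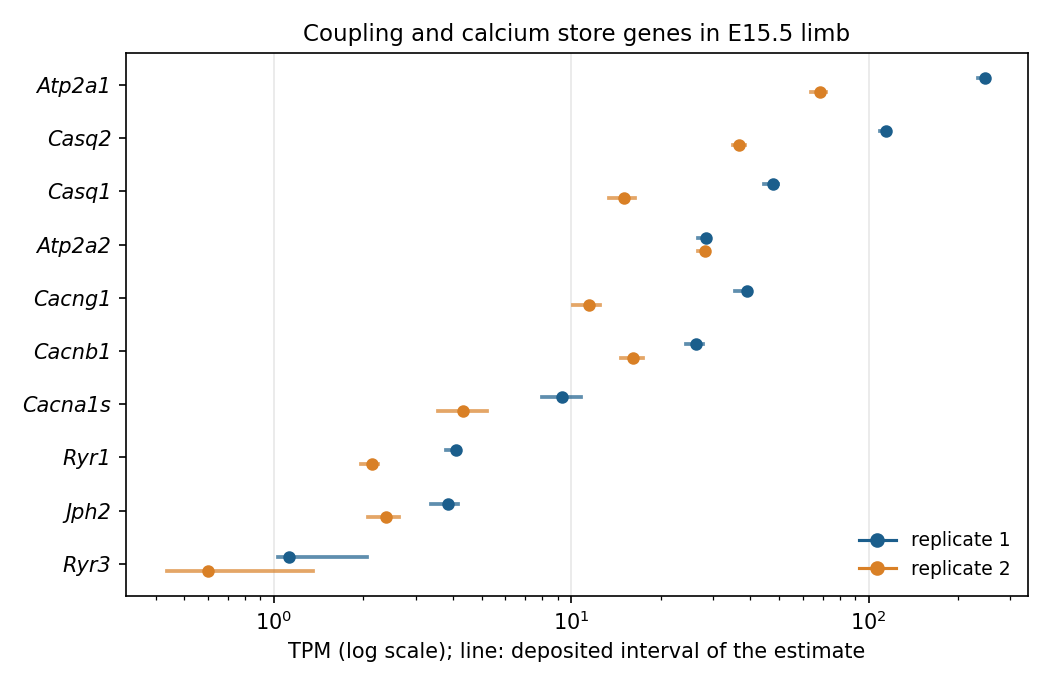
TPM of the 10 genes (log axis) in replicate 1 and replicate 2, with lines for the deposited interval of each estimate. Atp2a1 is highest in both pools (247 and 68.4 TPM), Atp2a2 is level between them (28.4 and 28.2 TPM), and the intervals of Atp2a2 and Ryr3 overlap between the pools.

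All but 1 of the 10 genes were higher in replicate 1, the pool with more contractile RNA, and 9 of 10 were over 1.5-fold higher (with no centring, Atp2a2 was higher too, at 1.01-fold). Of the 9 genes whose mean TPM reached 1, that is all but Ryr3, 8 were over 1.5-fold higher in replicate 1, against 4.87% of the 15571 genes at that level, and 5 were over 2-fold higher, against 2.47%. None was over 1.5-fold higher in replicate 2, against 3.12% of genes. Folds between the pools are from TPM + 0.1, centred on the median gene. For 8 of the 10 genes the deposited interval of replicate 1 lay wholly above that of replicate 2, as it did for 13.6% of the 15571 genes. The median fold of the 9 genes was 2.10, against 2.84 for the 20 contractile markers, whose range was 2.01 to 5.91. Cacna1s, Cacng1, Atp2a1, Casq1 and Casq2 lay within that range, and Ryr1, Ryr3, Cacnb1, Jph2 and Atp2a2 lay below it. With a pseudocount of 1 in place of 0.1, 7 of the 10 were over 1.5-fold higher in replicate 1.

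The 2 release channels differed in level, with Ryr1 above Ryr3 in each pool. Ryr1 encodes the channel that skeletal muscle opens by voltage, and Ryr3 encodes a channel that accompanies it in developing muscle and opens on calcium. Ryr1 had 4.11 TPM in replicate 1 (interval 3.80 to 4.23, 1400 counts) and 2.14 TPM in replicate 2 (1.96 to 2.24, 889 counts), a mean of 3.13 ± 1.39 TPM (SD, n = 2). Its 1.85-fold difference was within the spread of genes at that level, taken as the size of log2 difference that 95% of genes of like mean TPM (1 of 20 bins) stayed under, which was 1.33 where Ryr1 differed by 0.89. The 2 full-length Ryr1 models could not be told apart in replicate 1: Ryr1-201 was given 3.96 TPM with an interval of 0.0781 to 3.65, and Ryr1-202 was given 0.16 TPM with an interval of 0.386 to 4.03. For Ryr3, values were 1.12 TPM (1.03 to 2.06, 180 counts) and 0.60 TPM (0.437 to 1.36, 84.1 counts), with overlapping intervals. Within a library Ryr1 exceeded Ryr3 by 1.79 (replicate 1) and 1.68 (replicate 2) on the log2 scale of TPM + 0.1. Ryr3 reads were spread over short and long models: its full-length models alone had 0.43 and 0.17 TPM, and by these the mean log2 ratio of Ryr1 to Ryr3 was 3.02. Ryr3 shares 900 exonic bases with Aven on the opposite strand (3.93 and 4.47 TPM). The heart channel Ryr2, also found in neurons, had 0.07 and 0.14 TPM (27 and 66 counts). From all models it was the lowest of the 3 ryanodine receptors in both pools. By full-length Ryr3 models the order in replicate 2 is not settled. There the interval of Ryr3-201 (0.00701 to 0.166 TPM) overlapped that of Ryr2 (0.112 to 0.181 TPM).

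Of the voltage sensor complex, the pore-forming subunit was the least abundant and the accessory subunits were above it. Cacna1s, which encodes the pore and voltage sensor, had 9.34 TPM in replicate 1 (681 counts) and 4.33 TPM in replicate 2 (387 counts), a 2.10-fold difference. Cacnb1, whose product binds the pore inside the cell and is needed for coupling, had 26.3 TPM (1141 counts) and 16.1 TPM (780 counts), a 1.60-fold difference. Cacng1, which encodes a small membrane subunit that skeletal muscle uses, had 38.9 TPM (999 counts) and 11.5 TPM (361 counts), a 3.31-fold difference. All 3 differences were beyond the spread of genes at like levels, and all 3 genes had intervals that did not overlap between the pools. The log2 ratio of Cacnb1 to Cacna1s was 1.48 in replicate 1 and 1.87 in replicate 2, and that of Cacng1 to Cacna1s was 2.05 and 1.39. From replicate 1 to replicate 2 these ratios changed by 0.39 and -0.66. The spread of single genes was 0.69 at the level of Cacna1s, 0.47 at that of Cacnb1 and 0.51 at that of Cacng1. No spread was worked out for ratios. From full-length models alone the ratio of Cacnb1 to Cacna1s was 2.63 and 2.64, and that of Cacng1 to Cacna1s was 3.28 and 2.52.

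Cacna1s TPM rested in part on a short processed transcript, Cacna1s-203, which held 47.9% and 46.1% of the gene's TPM on 90.0 and 49.0 counts. Full-length models alone gave 3.92 and 1.92 TPM, a 1.96-fold difference. The log2 ratio of Cacna1s to Ryr1, the voltage sensor over the channel it opens, was 1.16 and 0.98 from all models, but -0.11 as a mean over the pools from full-length models. Which of the pair is more abundant therefore depended on the models counted.

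Paralogues of the 10 genes that serve other tissues were not over 1.5-fold higher in replicate 1 in any of the 5 cases whose mean TPM reached 1. Only 4.87% of all genes at that level were, so these paralogues were like most genes. Their median fold, over channel subunits, a pump and a junctophilin, was 0.90. Cacna1c, the channel of heart and smooth muscle, was at 3.49 TPM in replicate 1 against 5.05 in replicate 2. The log2 ratio of Cacna1s to Cacna1c was therefore 1.39 in replicate 1 and -0.22 in replicate 2. In replicate 2 the intervals overlapped (3.55 to 5.22 for Cacna1s, 4.51 to 5.92 for Cacna1c), so the order there is not settled. Full-length Cacna1s models alone had 3.92 and 1.92 TPM. Cacnb3, the most abundant of the other beta subunits, had 31.9 and 34.7 TPM, above Cacnb1 in both pools (log2 ratio of Cacnb1 to Cacnb3 -0.28 and -1.10). Cacnb2, a beta subunit of heart, had 2.07 and 2.28 TPM.

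Cacnb1 is spliced in a muscle manner and in a manner known from brain, which differ at an internal exon among other places. The muscle form (β1a) takes a long exon of 155 bases at chr11:98011343-98011497, exon 7 of 13 in Cacnb1-202, which has 524 codons. The other form (β1b) takes a short exon of 20 bases at chr11:98010627-98010646, exon 7 of 14 in Cacnb1-201, which has 597 codons. The coding sequence around each is shown because these letters tell the forms apart, with the alternative exon in capitals and 30 bases of the shared flanking exons in lower case.
Cacnb1 long exon: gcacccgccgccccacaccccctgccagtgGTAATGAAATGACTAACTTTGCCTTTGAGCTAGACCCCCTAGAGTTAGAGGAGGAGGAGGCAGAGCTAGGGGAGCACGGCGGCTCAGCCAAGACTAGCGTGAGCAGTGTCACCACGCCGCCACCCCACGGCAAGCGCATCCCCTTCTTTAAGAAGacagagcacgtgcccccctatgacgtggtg
Cacnb1 short exon: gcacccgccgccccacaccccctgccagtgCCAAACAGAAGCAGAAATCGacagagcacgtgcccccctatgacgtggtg

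The long exon was in most Cacnb1 RNA of both pools. Models with it summed to 20.8 TPM in replicate 1 against 9.87 in replicate 2, and models with the short exon to 4.00 and 2.62 TPM, so the long exon took 83.9% and 79.0% of the models that have either (81.5% ± 3.43, SD, n = 2). From counts not divided by length this mean share was 70.3%. Cacnb1-202 alone had 20.3 TPM (16.1 to 20.7) and 8.67 TPM (5.66 to 9.37), a 2.29-fold difference, and its share of the whole gene was 77.4% and 53.9%. The share of the short-exon model Cacnb1-201 was 15.2% and 16.3%. Shares were higher in replicate 2 for Cacnb1-204, another long-exon model (1.90% and 7.46%, 18.7 and 54.8 counts), and for the processed transcripts Cacnb1-206 (4.23% and 11.7%, 15.4 and 32.0 counts) and Cacnb1-207 (1.26% and 10.6%, 5.81 and 36.7 counts). Full-length models alone had 24.8 and 12.5 TPM, a 1.95-fold difference.

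Cacna1s also has an exon that is left out of the embryonic form of the channel (CaV1.1e), in which the calcium current is known to be larger than in the adult form. It has 57 bases, 19 codons, at chr1:136104570-136104626 and is exon 29 of 44 in Cacna1s-204. It is shown in capitals between 30 bases of its neighbours.
Cacna1s 19-codon exon: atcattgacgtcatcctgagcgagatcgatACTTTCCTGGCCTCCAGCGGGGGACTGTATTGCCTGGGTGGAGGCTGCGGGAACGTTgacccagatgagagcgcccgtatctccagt

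Both Cacna1s forms were assigned reads in both pools, and their proportion could not be told at this depth. Models with the exon had 2.25 and 1.29 TPM, and models without it had 2.26 and 0.78 TPM, so the form without the exon took 50.1% and 37.7%. The interval of the leading model with the exon, Cacna1s-204, ran from 0.0476 to 3.16 TPM in replicate 1, and that of Cacna1s-202, without it, from 0.0114 to 2.72 TPM. In replicate 2 these ran from 0.0356 to 1.56 TPM and from 0.00991 to 1.23 TPM.

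The 2 calcium pumps stood apart from each other in how they compared between the pools. Atp2a1 encodes SERCA1, the pump of fast skeletal fibres, and Atp2a2 encodes SERCA2, of which one form serves heart and slow muscle and the other nearly every cell. Atp2a1 had 247 TPM in replicate 1 (10922 counts) and 68.4 TPM in replicate 2 (3748 counts), a 3.55-fold difference, the largest of the 10 genes. It ranked 630 in replicate 1 and 2492 in replicate 2 among the gene rows by TPM. Atp2a2 had 28.4 TPM (2741 counts) and 28.2 TPM (3348 counts), which is 0.99-fold, and its intervals overlapped. Atp2a1 was thus 8.67-fold above Atp2a2 in replicate 1 and 2.42-fold above it in replicate 2 (TPM + 0.1). From full-length models alone, which leave out a partial Atp2a1 model described next, it was 4.35-fold and 1.24-fold above.

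Atp2a1 has an adult and a neonatal end, which depend on a short exon of 42 bases at chr7:126446545-126446586, exon 22 of 23 in Atp2a1-201. With this exon the reading frame stops inside it (adult SERCA1a, 994 codons). Without it the frame runs on into the last exon (neonatal SERCA1b). The coding ends are shown with the last 30 shared bases in lower case and, in capitals, the bases that differ up to and with the stop codon.
Atp2a1-201 end: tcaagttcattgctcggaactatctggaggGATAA
Atp2a1-202 end: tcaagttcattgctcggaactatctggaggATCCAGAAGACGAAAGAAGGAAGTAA

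RNA with each end was called in both pools. Atp2a1-201, the adult form, had 124 TPM in replicate 1 against 34.9 in replicate 2, and Atp2a1-202, which lacks the short exon, had 122 TPM (112 to 126) and 33.4 TPM (29.4 to 36.1). Of the TPM of both, the neonatal end took 49.6% and 48.9%, so the pools differed by less than a percentage point in this share while the gene differed 3.55-fold. These shares are not shares of mRNA molecules. The annotation holds the neonatal end only as a partial model of 5 exons and 681 nt, so reads from the upstream exons could be given only to Atp2a1-201, which had 9334 and 3218 counts against 1583 and 531 for Atp2a1-202. By counts not divided by length the neonatal end took 14.3% on average. The gene's TPM sums both models, and the full-length model alone, at 124 and 34.9 TPM, lay close to Casq2, above it in replicate 1 and below it in replicate 2. Rabep2, on the opposite strand, shares 763 exonic bases with Atp2a1 and had 33.5 and 32.4 TPM. The shared bases lie between chr7:126445858 and chr7:126448872, the stretch that also holds the short exon and the neonatal stop codon. The protocol documents include the manual of a cDNA kit, SMARTer Ultra Low, that does not mark strand, and strand use in counting is not given in the sources used here. How much reads of Rabep2 add to Atp2a1, or to either of its ends, was not tested.

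Atp2a2 was level as a gene, while its 2 forms differed between the pools in opposite directions, each by under 1.5-fold. SERCA2b (Atp2a2-201, 1044 codons), the form of most cells, ends by reading through into the following intron. SERCA2a (Atp2a2-202, 998 codons), the form of heart and slow muscle, joins to a last exon further on. The coding ends are shown in the same way.
Atp2a2-201 end: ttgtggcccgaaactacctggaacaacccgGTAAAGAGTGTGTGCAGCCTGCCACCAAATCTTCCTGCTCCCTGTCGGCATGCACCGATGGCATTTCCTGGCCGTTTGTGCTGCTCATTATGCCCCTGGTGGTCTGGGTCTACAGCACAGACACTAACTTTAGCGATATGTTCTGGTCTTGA
Atp2a2-202 end: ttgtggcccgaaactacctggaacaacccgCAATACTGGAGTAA

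SERCA2b RNA had 17.9 TPM in replicate 1 (16.4 to 18.5) and 21.2 TPM in replicate 2 (19.8 to 21.7), 1.21-fold higher in replicate 2. SERCA2a RNA had 10.5 TPM (9.33 to 11.2) and 7.02 TPM (6.19 to 7.61), 1.47-fold higher in replicate 1. In neither form did the intervals of the pools overlap, but these intervals do not cover the spread between pools. That spread was worked out for genes and not for transcripts. The share of SERCA2a was 37.1% in replicate 1 and 24.9% in replicate 2 (31.0% ± 8.64, SD, n = 2). Of the 12 transcripts of the 10 genes that held at least 5% of a gene with a mean TPM of at least 10, 3 had shares over 10 percentage points apart: both Atp2a2 models and Cacnb1-202. The same held for 7.09% of such transcripts over all genes, or 3.23% with no minimum share. The 2 Atp2a2 models held nearly all TPM of their gene, so a rise in the share of one is a fall in that of the other. Of 17 member transcripts whose mean TPM reached 1, 8 were over 2-fold higher in replicate 1, against 5.27% of all such transcripts. Heart markers, which could accompany SERCA2a, summed to 11.9 and 8.19 TPM over 7 genes, none of them at 0. Contractile genes of slow muscle, which could accompany it too, had higher levels. Myh7 had 48.4 and 15.1 TPM, Tnnt1 456.5 and 188, Tnni1 487 and 188, and Tnnc1 464 and 227. All 20 contractile markers of skeletal muscle were over 2-fold higher in replicate 1. The part of heart or slow muscle cells in the SERCA2a difference was not tested.

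**Figure D2:**
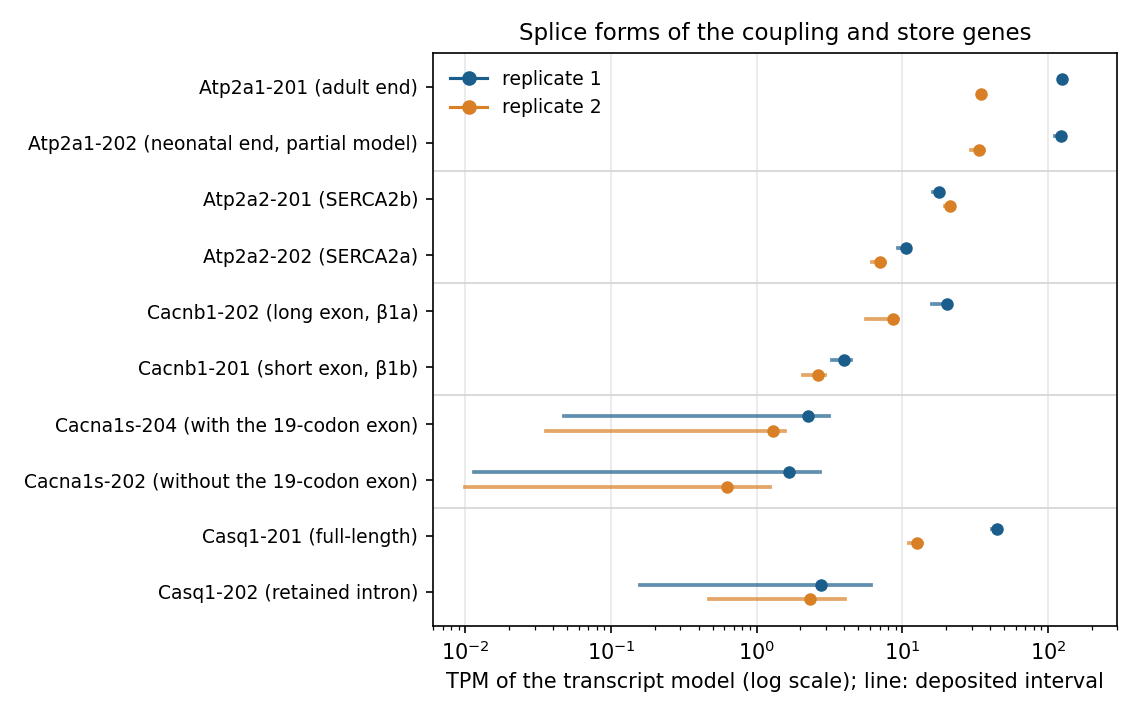
TPM of transcript models (log axis) in replicate 1 and replicate 2, with lines for the deposited intervals. The models with the adult and neonatal Atp2a1 ends lie together in each pool (124 and 122 TPM, 34.9 and 33.4 TPM), the Atp2a2 models differ in opposite directions, and the Cacna1s models have intervals that span over a factor of 10.

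The small membrane proteins that restrain SERCA were led by sarcolipin, which is made in developing skeletal muscle. Sln was at 488 TPM in replicate 1 against 153 in replicate 2 (4526 and 1740 counts), which was above Atp2a1 in each pool and 3.13-fold apart. Mrln, which encodes myoregulin, had 34.0 and 13.2 TPM, a 2.51-fold difference. Phospholamban (Pln), the regulator in heart and slow muscle, had 0.80 and 1.35 TPM on 40 and 83 counts, the reverse direction. Its log2 difference of 0.71 was within the spread of genes at that level (1.90). The log2 ratio of Sln to Pln was 9.08 in replicate 1 and 6.73 in replicate 2. Gm34302 had 5 and 3 counts, and Strit1 was not matched by symbol.

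Both calsequestrins, the calcium-binding proteins of the store, were over 3-fold higher in replicate 1, and their ratio was nearly the same in both pools. Casq2, the form of heart and slow muscle, had 114 TPM in replicate 1 (109 to 116, 6240 counts) and 36.7 TPM in replicate 2 (2457 counts), a 3.06-fold difference. Casq1, the form of fast skeletal fibres, had 47.7 TPM (44.4 to 49.7, 1806 counts) and 15.0 TPM (661 counts), a 3.11-fold difference. Casq2 was 2.39-fold above Casq1 in replicate 1 and 2.44-fold above it in replicate 2, and this log2 ratio differed by 0.02 between the pools. Of single genes at the level of Casq1, 95% stayed under a log2 difference of 0.39. No such spread was worked out for ratios. Heart markers were at 5.20 TPM or lower in replicate 1 and 4.67 TPM or lower in replicate 2, below Casq2 in each pool. The part of heart cells or of slow muscle in Casq2 RNA was not tested.

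Casq1-201, the full-length model, had 44.9 and 12.7 TPM, and Casq1-202, which retains an intron, had 2.75 TPM (0.158 to 6.06) and 2.33 TPM (0.474 to 4.07). Casq2 was nearly all Casq2-201, at 99.6% and 98.7% of its TPM. The log2 ratio of Casq1 to Atp2a1, store protein over pump, was -2.37 and -2.18, and that of Ryr1 to Atp2a1, release channel over pump, was -5.87 and -4.93. Full-length models alone gave -1.46 in both pools for Casq1 to Atp2a1, and -4.88 and -3.97 for Ryr1 to Atp2a1.

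Jph2, the junctophilin of heart and skeletal muscle, had 3.84 TPM in replicate 1 (3.37 to 4.15, 352 counts) and 2.38 TPM in replicate 2 (266 counts), a 1.56-fold difference within the spread of genes at that level. Its paralogue Jph1, the main junctophilin of adult skeletal muscle, had 0.97 and 0.76 TPM (102 and 97 counts) with overlapping intervals. Jph2 exceeded Jph1 by 1.88 and 1.53 on the log2 scale.

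**Figure D3:**
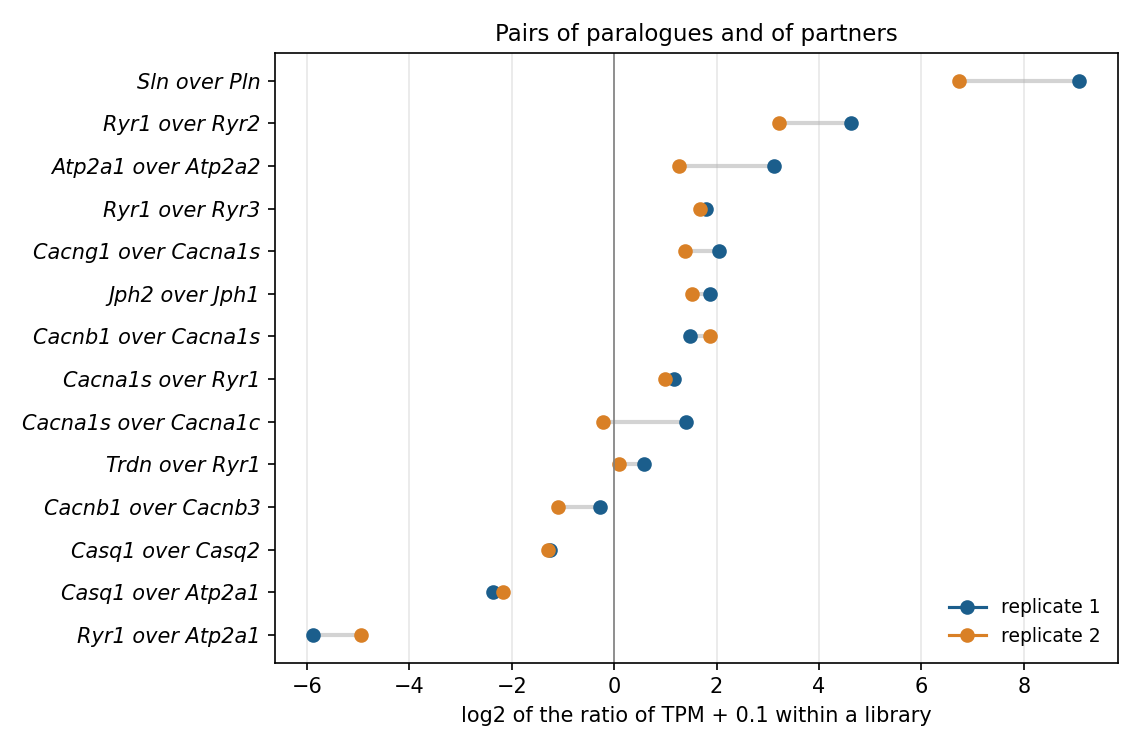
log2 of the ratio of TPM + 0.1 within each library for 14 pairs of paralogues or partners, with replicate 1 and replicate 2 as points and a grey line between them. Casq1 over Casq2 is nearly the same in both pools (-1.26 and -1.28), Atp2a1 over Atp2a2 is not (3.12 and 1.27), and Cacna1s over Cacna1c changes sign. The intervals of Cacna1s and Cacna1c overlap in replicate 2.

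Other genes of the triad, the junction of tubule and reticulum, ranged from level between the pools to over 3-fold higher in replicate 1. Of 17 whose mean TPM reached 1, 15 were higher in replicate 1, 11 over 1.5-fold and 9 over 2-fold, with a median fold of 2.20. The 9 were Stac3, an adaptor that CaV1.1 needs for coupling (32.6 and 14.2 TPM), Trdn, the triadin that ties calsequestrin to the ryanodine receptor (6.19 and 2.28 TPM), Jsrp1, which binds CaV1.1 and calsequestrin (22.6 and 6.21 TPM), the muscle caveolin Cav3 (48.9 and 15.2 TPM), the calcium-binding store proteins Srl (68.6 and 30.2 TPM) and Hrc (12.5 and 4.46 TPM), the store cation channel Tmem38a (54.0 and 24.1 TPM), Sypl2 (7.87 and 2.79 TPM) and Cacng6, another gamma subunit (13.0 and 5.53 TPM). The log2 ratio of Trdn to Ryr1 was 0.58 and 0.09.

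The 3 most abundant of these other triad genes were under 2-fold apart. Fkbp1a, which encodes the ryanodine receptor's binding protein FKBP12 and is made in nearly all cells, had 454 and 410 TPM, a 1.09-fold difference. Bin1, which shapes the tubule membrane, had 152 and 90.2 TPM, a 1.66-fold difference, and Asph had 56.4 and 50.3 TPM, a 1.10-fold difference. The 2 genes not higher in replicate 1, named after their values were seen, were Cacna2d1, the alpha-2-delta subunit of the channel (10.8 TPM in both pools), and Mtm1 (4.13 and 4.26 TPM).

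**Figure D4:**
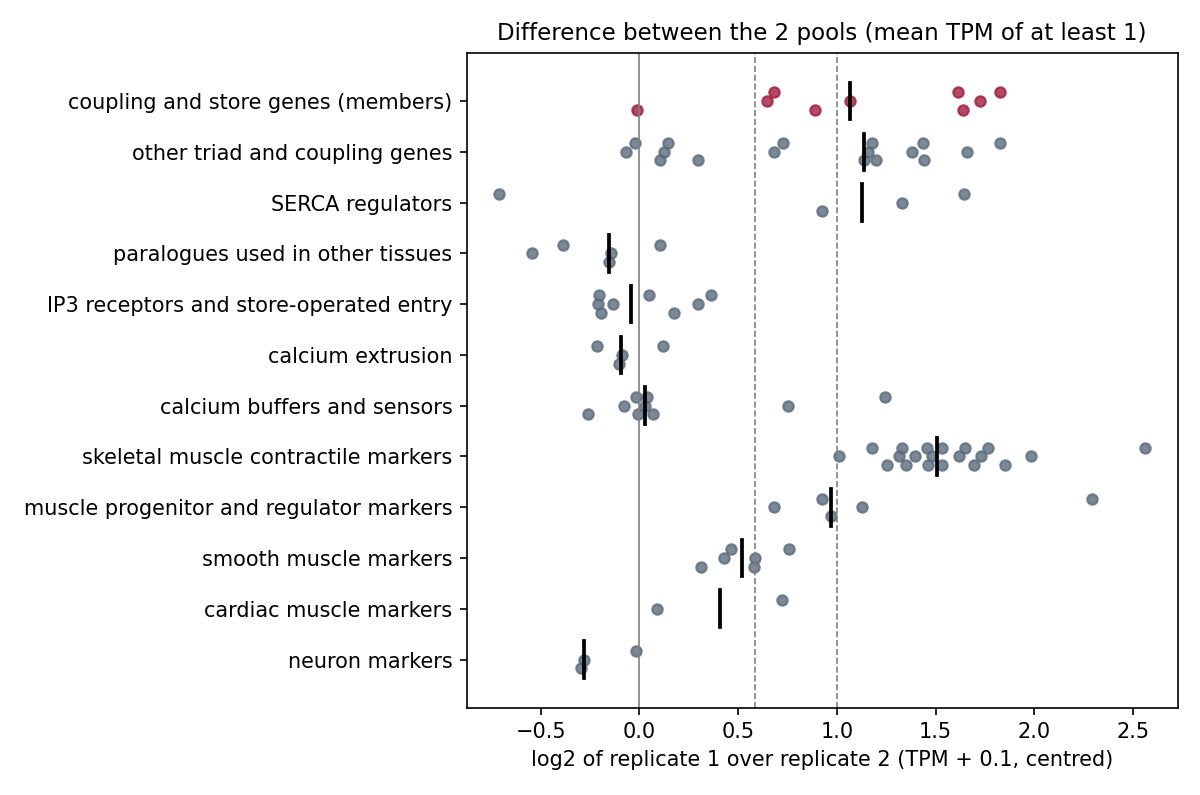
log2 of replicate 1 over replicate 2 for genes whose mean TPM reached 1, each gene a point, grouped by list, with a black bar for the list median and dashed lines at 1.5-fold and 2-fold. Of the 10 coupling and store genes, 9 are plotted (Ryr3 is below 1 TPM) and 8 of these lie beyond 1.5-fold, with Atp2a2 at 0.99-fold, while the 20 contractile markers run from 2.01-fold to 5.91-fold.

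Upstream sequence was available in the RefSeq promoter table (GRCm38.p6) for 7 of the 10 genes, as 250 bases before the first listed transcription start. The 3 of these genes with the largest differences between the pools are shown, with matches to muscle motifs in capitals. Motifs were searched on both strands: the E-box CANNTG bound by the MyoD family, its form CAGCTG (counted also as an E-box), the M-CAT motif CATTCC, and the MEF2 and CArG motifs.
Atp2a1 upstream, chr7:126463074-126463323, minus strand: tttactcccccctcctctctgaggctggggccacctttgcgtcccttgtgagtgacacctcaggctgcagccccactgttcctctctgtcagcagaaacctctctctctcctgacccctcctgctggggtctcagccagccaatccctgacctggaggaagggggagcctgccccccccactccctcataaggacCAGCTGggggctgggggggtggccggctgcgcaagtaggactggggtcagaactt
Casq1 upstream, chr1:172219896-172220145, minus strand: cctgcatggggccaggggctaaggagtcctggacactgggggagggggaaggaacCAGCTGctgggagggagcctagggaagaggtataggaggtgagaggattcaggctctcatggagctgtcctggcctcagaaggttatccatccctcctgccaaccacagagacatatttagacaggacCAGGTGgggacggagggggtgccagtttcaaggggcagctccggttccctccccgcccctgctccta
Casq2 upstream, chr3:102086165-102086414, plus strand: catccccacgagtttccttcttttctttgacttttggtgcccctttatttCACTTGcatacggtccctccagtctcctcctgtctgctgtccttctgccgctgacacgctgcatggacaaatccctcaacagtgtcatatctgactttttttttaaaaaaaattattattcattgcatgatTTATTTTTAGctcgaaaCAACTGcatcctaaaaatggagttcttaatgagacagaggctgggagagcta

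An E-box was found in 5 of the 7 windows, against 66.0% of the windows of 27025 genes, and CAGCTG in 4 of the 7 (Atp2a1, Casq1, Cacna1s and Jph2), against 12.8%. An M-CAT match was found in 1 window, that of Cacna1s (12.6% of all windows), and a MEF2 match in 1, that of Casq2 (3.01%). No window had a CArG match (1.40% of all windows), and the windows of Ryr1 and Cacnb1 matched no motif searched. The Cacnb1 window, placed by a RefSeq start, is chr11:98022628-98022877. It lies wholly inside the M21 bounds of the gene, and that of Ryr1 overlaps them in part. The fold between the pools was 3.55 for Atp2a1, 3.11 for Casq1, 2.10 for Cacna1s and 1.56 for Jph2, which have CAGCTG. It was 3.06 for Casq2, whose E-boxes have other letters, and 1.85 for Ryr1 and 1.60 for Cacnb1, which have no match. Whether a motif bears on the fold was not tested. A match describes the letters of a window and is not a bound site.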

How the data were processed

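Total RNA of 2 pools of embryonic limb was sequenced. The labels name mm10 as assembly, and the deposited sample records name annotation M4 of GENCODE. Aligner and counting program: not given in the sources used here. Per the file headers the authors deposited expected counts, TPM (with posterior mean TPM), FPKM, the interval bounds of each TPM, and the percent of its gene that each transcript holds. Posterior mean TPM and FPKM were used only as alternatives. GENCODE M21, also on GRCm38, gave symbols, exons and coordinates: 42462 gene rows matched and 884 did not. Of 40 member transcripts 38 were in M21 and 31 had the same length in both, which the 2 Atp2a2 models shown did not.

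Differences between the pools were log2 of TPM + 0.1, centred on the median of the 15571 genes whose mean TPM reached 1 (a shift of -0.02). Shares of splice forms were computed from transcript TPM. Coding ends and exons came from the M21 transcript sequences and upstream windows from RefSeq. Alternatives were a pseudocount of 1, posterior mean TPM, FPKM, rounded expected counts scaled by edgeR 4.0.16 (TMM) or DESeq2 1.42.0 size factors, no centring, spike-in scaling, other filters, and, added after seeing the data, full-length models alone. Python 3.11.15 with pandas 2.3.3 and R 4.3.3 were used, and the scripts were tested on simulated data. With 1 group of 2 samples no p-value is given. The confidence level of the deposited intervals is likewise not stated, and they cover counting error and read assignment only. The posterior intervals left out the TPM itself for 5.07% and 3.89% of these genes. The 10 genes and all lists were chosen with earlier results of these data known. Named genes are the 10, those of the pairs, the 3 highest of each other list and those over 2-fold apart, and the defining markers. The values of 1 gene that this rule names are not reported here.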

Additional observations from a re-analysis of the deposited data

How the results depend on the processing

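The counts of genes higher in replicate 1, and over 1.5-fold and 2-fold higher, stayed within 1.5 times their values (9, 9 and 5 of 10) under all 10 alternatives. The log2 ratio of Ryr1 to Ryr3, 1.73 on average, was 1.12 with a pseudocount of 1, 1.26 with posterior mean TPM, 3.18 with counts not divided by length and 3.02 with full-length models alone. For Casq1 over Casq2, -1.27 on average, the values were -1.24 with a pseudocount of 1, -1.84 with counts not divided by length and -1.43 with full-length models. With a pseudocount of 1, Jph2 over Jph1 was 1.12 in place of 1.70 and Ryr1 over Ryr2 was 1.86 in place of 3.93. Directions turned for Cacna1s over Ryr1 (1.07 on average), at -1.12 with counts not divided by length and -0.11 with full-length models, for Trdn over Ryr1 (0.33 on average), at -1.45 with counts not divided by length, and for Cacna1s over Cacna1c (0.59 on average), at -0.51 with counts not divided by length. For the counts the missing division by length makes the difference by construction. The full-length value of Cacna1s over Ryr1 leaves out shorter Cacna1s models, chiefly Cacna1s-203 with 47.9% and 46.1% of the gene's TPM, and no Ryr1 model. For the other values the cause was not tested. Leaving out a pool turned Cacna1s over Cacna1c too, which ranged from -0.22 to 1.39. With full-length models, Atp2a1 over Atp2a2 was 1.21 in place of 2.19, Ryr1 over Atp2a1 -4.42 in place of -5.40 and Casq1 over Atp2a1 -1.46 in place of -2.28, since a partial Atp2a1 model is left out. The difference of Cacnb1 between the pools ranged from -0.96 to -0.65 and that of Ryr3 from -1.36 to -0.38 (log2 of replicate 2 over replicate 1). Depth limits Ryr3, with 180 and 84.1 counts, and the forms of Cacna1s. No paired analysis was possible because there is only 1 group.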

Other observations

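Calcium handling that most cells share was nearly level between the pools, as were most genes. Of the 15571 genes whose mean TPM reached 1, 4.87% were over 1.5-fold higher in replicate 1 and 3.12% in replicate 2. Of 8 IP3 receptors and store-operated entry genes, all with a mean TPM above 1, none was over 1.5-fold apart in either direction, with a median fold of 0.97 (replicate 1 over replicate 2). The highest were Stim1, the calcium sensor of the store (27.3 and 21.9 TPM), and the plasma membrane channel Orai3 (22.4 and 19.5 TPM), with Stim2 at 18.1 and 20.4 TPM. Of 4 extrusion genes at that level, none was over 1.5-fold apart either, and the median fold was 0.94. They were led by the plasma membrane pumps Atp2b1 (33.4 and 35.3 TPM) and Atp2b4 (20.2 and 18.3 TPM) and the exchanger Slc8a1 (3.37 and 3.53 TPM). In replicate 2 Atp2b1 was above Atp2a2, at 28.2 TPM.

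Of 9 calcium buffers and sensors with a mean TPM of at least 1, 2 were over 1.5-fold higher in replicate 1. These were the calmodulin-dependent kinases Camk2a (11.6 and 4.77 TPM) and Camk2b (3.75 and 2.15 TPM), the latter named after its values were seen. Calr, the calcium buffer of the endoplasmic reticulum (896 and 894 TPM), and Calm2 (789 and 756 TPM) were among the most abundant. Parvalbumin (Pvalb), the buffer of adult fast fibres and also named after its values were seen, had 8 and 3 counts. Regulators and progenitor markers of muscle had a median fold of 1.96 over the 5 with a mean TPM of at least 1. Myog had 192 and 96.3 TPM, Myod1 48.3 and 29.5 TPM and Mymk, which encodes a fusion protein, 67.2 and 30.2 TPM, while Myf6 had 24.6 and 4.85 TPM, a 4.91-fold difference.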
